A study of Rattus norvegicus with 12 samples.

Results

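The clustered protocadherins are cell surface adhesion proteins encoded side by side on rat chromosome 18. They were taken as every entry of the deposited gene table whose symbol starts with Pcdha, Pcdhb, Pcdhga, Pcdhgb or Pcdhgc and ends with a number, or with c and a number. This gave 39 of 17407 entries, of which 15 belong to the alpha cluster, 11 to the beta cluster and 13 to the gamma cluster. The family was chosen by the measured diet differences of Pcdhb6 and Pcdhb2, which moved in opposite directions with the weaning diet in the offspring of each kind of dam. Diet differences of the members, and the dependence of those differences on the dam, are therefore given as a description with no test.

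RNA was sequenced from islets of Sprague-Dawley rat offspring aged 15 weeks, in 4 groups of 3 libraries. GDM-HFS and GDM-LF are offspring of dams fed a high-fat and sucrose (HFS) diet, with 45% fat, which induced gestational diabetes mellitus (GDM). Lean-HFS and Lean-LF are offspring of dams fed a low-fat (LF) diet, with 10% fat. The second part of each name is the diet given to the pup for 12 weeks from weaning, and all sires ate LF diet. There were 6 dams on each diet, fed from 6 weeks before mating until the pups were weaned. The diabetes of these dams is thus induced by diet, and diet and diabetes of the dam cannot be told apart. Litter, sex and pooling of animals are not stated in the labels, so p-values measure only the spread between these 12 samples.

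Gene reads ranged from 11469290 to 27492858 per library, and reads of ribosomal RNA (rRNA) from 1.84% to 38.98% of them. The summed scaled value of 11 islet endocrine markers was 1360000 to 2500000 in GDM offspring and 1370000 to 1670000 in lean offspring, and 0 of these markers was at 0. The titles carry a letter of no stated meaning, which was K in GDM-HFS 3, GDM-LF 1 and GDM-LF 2, while every other library has a G. No lean library has a K, and leaving out the K libraries leaves 1 library in GDM-LF.

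Clustered protocadherins are best known from neurons, where each cell switches on its own small set of variable exons and the proteins on touching membranes bind only matching partners. In the alpha and gamma clusters, each variable first exon is spliced to constant exons at the end of the cluster, which encode a shared cytoplasmic tail. Each beta gene is a single large exon with no constant part. Most variable exons have a promoter with a conserved element around the letters CGCT, near which the looping factor CTCF binds.

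Promoter sequences show how alike the beta members are. RefSeq (assembly GRCr8) held a promoter for 24 of the 39 members, 11 beta, 12 gamma and 1 alpha, from 250 bases before to 50 bases after the start. GGTGGCGCTG is the longest run of letters that all 11 beta promoters share. On either strand it was present in 11 of 11 beta members, in 0 of 12 gamma members and in 74 of 33469 promoters of all genes (0.221%). The run was derived from these promoters, so the first count follows from how it was found. Of all 19 beta promoters in RefSeq, members included, 15 hold it. The run contains the shorter CGCT, which 60.9% of all promoters contain. The 40 bases around the match follow for the beta members in chromosome order, 5′ to 3′ on the plus strand, with the match in capitals.
Pcdhb2: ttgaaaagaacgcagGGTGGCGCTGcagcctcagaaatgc
Pcdhb3: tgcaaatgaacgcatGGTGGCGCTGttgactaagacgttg
Pcdhb4: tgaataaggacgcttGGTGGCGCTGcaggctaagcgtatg
Pcdhb5: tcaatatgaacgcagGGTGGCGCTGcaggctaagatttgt
Pcdhb6: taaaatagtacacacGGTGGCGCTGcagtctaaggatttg
Pcdhb8: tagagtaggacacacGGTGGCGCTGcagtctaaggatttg
Pcdhb9: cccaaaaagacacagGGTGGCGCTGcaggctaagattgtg
Pcdhb10: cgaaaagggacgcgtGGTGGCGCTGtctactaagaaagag
Pcdhb12: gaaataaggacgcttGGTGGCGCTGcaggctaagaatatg
Pcdhb20: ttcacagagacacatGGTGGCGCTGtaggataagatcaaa
Pcdhb21: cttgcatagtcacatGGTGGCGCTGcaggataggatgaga

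Pcdhb6 and Pcdhb8 matched at 37 of these 40 bases, whereas Pcdhb6 and Pcdhb2 matched at 28. The other beta members matched Pcdhb6 at 20 (Pcdhb21) to 30 (Pcdhb12) bases. Each count includes the 10 bases of the shared run, on which the windows were aligned. The match started 71 bases before the annotated start of Pcdhb2 and 229 bases before that of Pcdhb6. It started 208 bases before that of Pcdhb8 and 52 to 98 bases before those of the other beta members. The 250 bases before each of these starts are shown because these are the genes that singled out the family. They lie at chr18:29279754-29280003 for Pcdhb2 and chr18:29320141-29320390 for Pcdhb6, on the plus strand of GRCr8.
Pcdhb2: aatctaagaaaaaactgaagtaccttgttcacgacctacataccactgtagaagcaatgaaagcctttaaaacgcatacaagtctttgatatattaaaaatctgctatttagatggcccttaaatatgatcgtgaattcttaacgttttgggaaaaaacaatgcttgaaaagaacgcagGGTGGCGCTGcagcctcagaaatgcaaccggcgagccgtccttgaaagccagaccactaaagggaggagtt
Pcdhb6: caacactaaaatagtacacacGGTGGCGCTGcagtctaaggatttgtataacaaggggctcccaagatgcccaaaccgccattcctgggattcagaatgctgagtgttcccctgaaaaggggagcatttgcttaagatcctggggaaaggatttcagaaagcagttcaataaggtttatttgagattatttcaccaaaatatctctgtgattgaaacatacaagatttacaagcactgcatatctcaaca

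Most gamma promoters of members share other letters around the same core. On either strand, CGCTGTT, chosen after these sequences were read, was present in 11 of 12 gamma members, in 1 of 11 beta members and in 1.98% of all promoters. Of all 15 gamma promoters in RefSeq, members included, 11 hold it. Windows of 37 bases around it are shown for 3 gamma members on the plus strand, one of which, Pcdhga8, was among the most abundant.
Pcdhga2: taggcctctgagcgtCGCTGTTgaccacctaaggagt
Pcdhga8: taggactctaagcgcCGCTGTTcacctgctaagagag
Pcdhga10: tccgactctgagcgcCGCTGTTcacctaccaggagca

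The entries of the alpha and gamma clusters do not carry separate measurements. All 15 alpha entries end within 1 base of position 29924443 of chromosome 18 (build rn5), and all 13 gamma entries end between 30662065 and 30662067, so reads of the constant exons were counted for every entry of a cluster. In each library the lowest entry of a cluster bounds the shared reads from above. The median entry lay 1.7% to 9.7% above the lowest one in the alpha cluster and 0.9% to 4.6% above it in the gamma cluster. Only the reads above the lowest entry can be assigned to a variable exon, and they are a lower bound for it. The 11 beta genes lie between 30083426 and 30297984 and share no exon.

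All 39 members passed the filter for testing, a mean of 1 on the depth-scaled value, and the lowest mean was 3.04 (Pcdhb6). In the scaled values 1 read is worth 0.166 to 0.577, depending on the library. Per kilobase of exon, means over all libraries were 96.9 to 128 for gamma entries, 31.7 to 46.4 for alpha entries and 0.91 to 15.05 for beta genes. The highest were Pcdhgc3 and Pcdhga8 at 128 and 118 in the gamma cluster, Pcdha4 and Pcdha13 at 46.4 and 37.2 in the alpha cluster, and Pcdhb20 and Pcdhb10 at 15.05 and 11.95 in the beta cluster. The level of whole alpha and gamma entries includes the shared reads.

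Reads above the lowest entry were uneven between variable exons. Pcdha4 and Pcdha13 held 36.1% and 13.0% of all alpha reads above the lowest entry, 49.1% together. Pcdhgc3, a C-type member, and Pcdhga8 held 34.8% and 26.0% of those of the gamma cluster, 60.7% together. Pcdha4 led the alpha cluster in each of the 12 libraries. In the gamma cluster Pcdhgc3 held 23.4% to 45.0% of those reads in a library and Pcdhga8 16.0% to 39.1%.

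**Figure D1:**
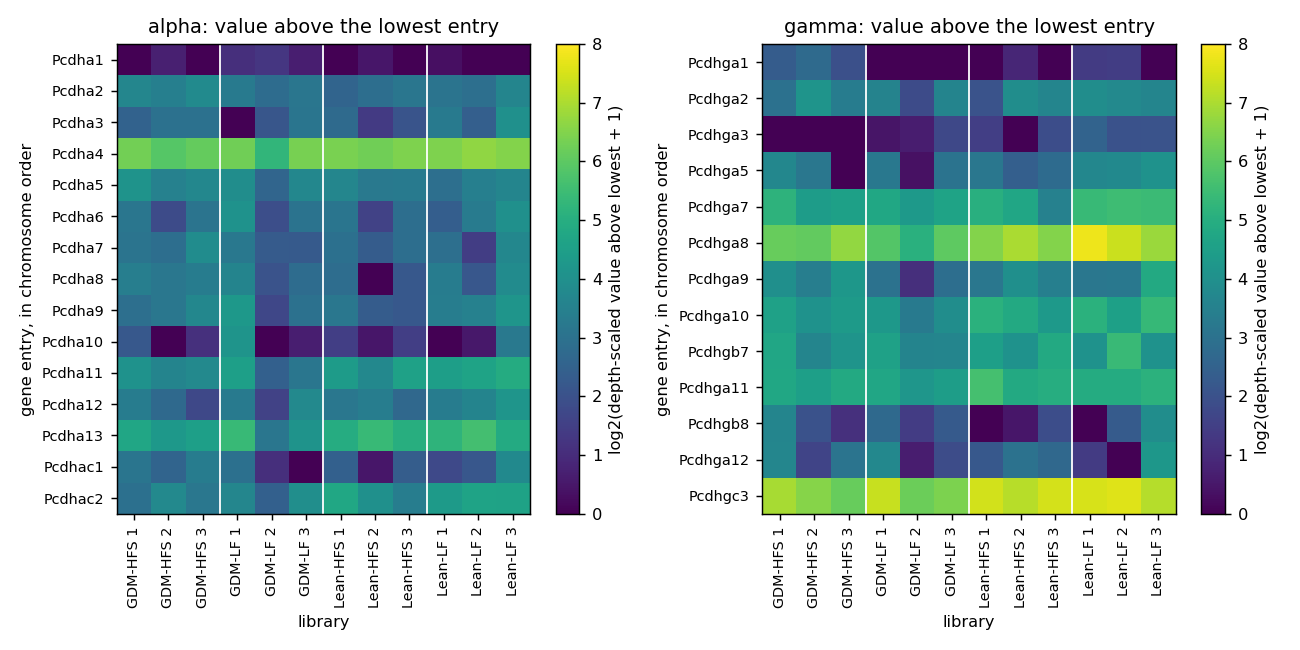
Depth-scaled value of each alpha (left) and gamma (right) entry above the lowest entry of its cluster, as log2(value + 1), in 12 libraries. Pcdha4, Pcdhgc3 and Pcdhga8 stand out in every library, and white lines part the 4 groups.

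The effect of the dam was taken as GDM minus lean offspring, averaged over both weaning diets, a contrast that the choice of the family did not use. Gamma and alpha transcripts were lower in offspring of GDM dams, whereas no beta member passed the test. In the gamma cluster 13 of 13 entries fell, with a median log2 difference of -0.68 (-0.74 to -0.67) and adjusted p-values of 0.0122 to 0.0135 by limma. In the alpha cluster 15 of 15 entries fell, with a median of -0.69 (-0.75 to -0.63) and adjusted p-values of 0.0282 to 0.0446. Of all 12339 genes tested, 5.43% were called lower, with a median log2 difference of 0.03. Since entries share reads, these counts stand for about 1 shared measurement per cluster and not for 28 separate genes.

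Both clusters make long transcripts, and the entries span 4498 to 5412 bases. Among the 1314 genes of 4000 to 6000 bases, 14.0% were called lower and the median log2 difference was -0.20. The length measure, the median log2 deviation of short less long transcripts in a library, was -0.07 to 0.74 in GDM offspring and -0.73 to -0.08 in lean offspring. With the length trend removed the medians were -0.47 for gamma and -0.46 for alpha, and limma called 13 gamma and 0 alpha entries (15 alpha entries at an unadjusted p under 0.05). Over all 12339 genes that fit called 552 in either direction, against 1426 with the trend left in.

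The lowest gamma entry, which follows the constant exons, averaged 364 ± 13.8 in GDM-HFS and 322 ± 44.2 in GDM-LF, against 543 ± 89.9 in Lean-HFS and 572 ± 130 in Lean-LF (scaled value, SD, n = 3 each). Its range was 272 to 379 in GDM offspring and 425 to 669 in lean offspring. All 6 GDM libraries thus lay below all 6 lean libraries. This held for 13 of 13 gamma entries, 1 of 15 alpha entries (Pcdha4) and 0 of 11 beta genes, and for 2.32% of all genes tested. In bulk islets, fewer cells of a type and less RNA per cell cannot be told apart.

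Pcdhgc3, which in other work curbs Wnt signalling through Axin1, had the highest gamma value. It stood at 473, 472 and 433 in GDM-HFS and at 496, 345 and 441 in GDM-LF, against 809, 680 and 630 in Lean-HFS and 851, 815 and 561 in Lean-LF. Its log2 difference was -0.70 ± 0.134 (SE, adjusted p = 0.0122, limma). Lean-LF 3 was the lowest lean library and still lay above the highest GDM library.

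Pcdhga8, an A-type gamma member, had the largest gamma difference, a log2 value of -0.74 ± 0.140 (adjusted p = 0.0122, limma). It stood at 421, 445 and 466 in GDM-HFS and 394, 304 and 419 in GDM-LF, against 723, 666 and 544 in Lean-HFS and 890, 784 and 534 in Lean-LF. Counted above the lowest entry, it stood at 69.6, 66.0 and 103 in GDM-HFS and 56.5, 32.8 and 63.5 in GDM-LF. The lean values above the lowest entry were 89.6, 125 and 90.2 in Lean-HFS and 221, 162 and 109 in Lean-LF. These ranges overlap through GDM-HFS 3, which at 103 exceeds Lean-HFS 1 and Lean-HFS 3.

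The other gamma entries, Pcdhga2, Pcdhga3, Pcdhga5, Pcdhga7, Pcdhga9, Pcdhga10, Pcdhgb7, Pcdhga11, Pcdhgb8 and Pcdhga12 among them, differed by -0.69 to -0.67 on the log2 scale. Pcdhga11, the next most abundant per kilobase, ranged from 289 to 401 in GDM offspring and from 458 to 698 in lean offspring. Above the lowest entry, Pcdhga1 had scaled values of 0 to 5.81 and Pcdhga3 of 0 to 4.79 over all libraries, and in most libraries one of them was itself the lowest entry.

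**Figure D2:**
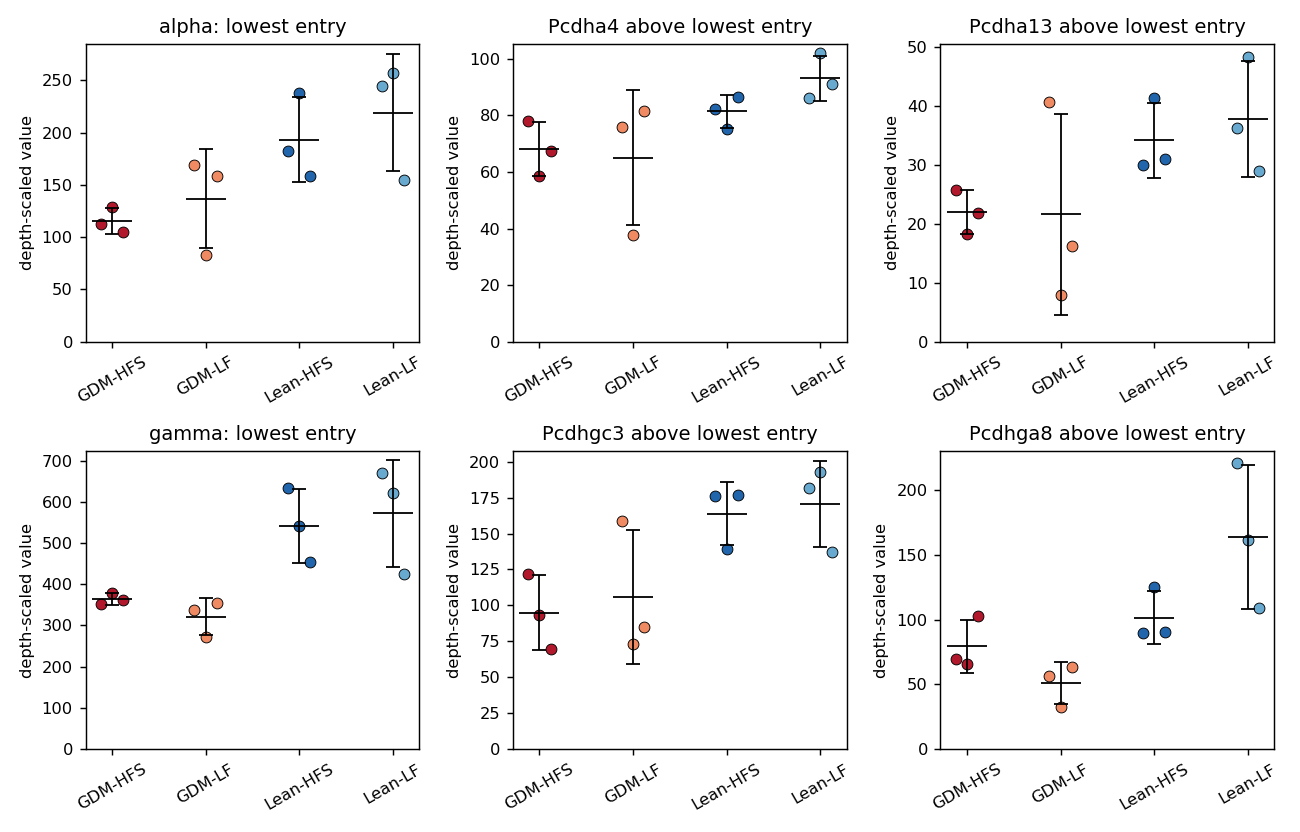
Depth-scaled value of the lowest alpha and gamma entry (left) and of the leading variable exons above it (middle and right), for each of 12 libraries by group. Points are libraries, with mean ± SD. The lowest gamma entry spans 272 to 379 in GDM offspring and 425 to 669 in lean offspring.

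In the alpha cluster, the lowest entry averaged 126 ± 33.1 in GDM offspring and 206 ± 46.0 in lean offspring (SD, n = 6 each). The ranges, 82.5 to 169 in GDM offspring and 155 to 258 in lean offspring, overlap. Pcdha4 stood at 190, 188 and 172 in GDM-HFS and 245, 120 and 240 in GDM-LF, against 265, 313 and 245 in Lean-HFS and 331, 360 and 246 in Lean-LF. Its log2 difference was -0.63 ± 0.175 (adjusted p = 0.0379, limma), and its highest GDM and lowest lean libraries meet at 245.

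Pcdha13 and Pcdha11, the next alpha entries per kilobase, had log2 differences of -0.72 ± 0.201 and -0.74 ± 0.188 (adjusted p = 0.0372 and 0.0282, limma). Pcdha13 ranged from 90.4 to 210 in GDM offspring and from 184 to 306 in lean offspring. Pcdha11 ranged from 87.0 to 191 in GDM offspring and from 182 to 281 in lean offspring. Above the lowest entry, Pcdha4 averaged 66.6 ± 16.4 in GDM offspring and 87.3 ± 9.01 in lean offspring (SD, n = 6 each). Pcdha13 above the lowest entry ranged from 7.86 to 40.6 in GDM offspring and from 28.9 to 48.3 in lean offspring. In each of these comparisons the ranges overlap, and GDM-LF 2 is the lowest library.

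The beta members gave 0 calls by limma, 0 by edgeR and 0 by DESeq2, with 1 of 11 at an unadjusted p under 0.05 by limma (Pcdhb21, named after its values were seen). Their median log2 difference was -0.04 (-0.72 to 0.32, adjusted p = 0.128 to 0.963, limma). The summed beta value was 153 ± 29.6 in GDM offspring and 173 ± 25.0 in lean offspring (SD, n = 6 each). Pcdhb20, the highest beta gene, ranged from 27.0 to 55.7 in GDM offspring and from 36.6 to 76.0 in lean offspring (log2 -0.40 ± 0.247, adjusted p = 0.287, limma). Pcdhb10 had a log2 difference of -0.27 ± 0.251 and Pcdhb9 one of -0.09 ± 0.225 (adjusted p = 0.483 and 0.824). Pcdhb21 ranged from 2.31 to 8.28 in GDM offspring and from 6.77 to 9.85 in lean offspring (log2 -0.72 ± 0.304, adjusted p = 0.128). The SE of single beta genes was 0.225 to 0.408, wider than the 0.130 to 0.140 of the gamma entries. Whether the beta cluster differs from the others in its response was not tested.

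**Figure D3:**
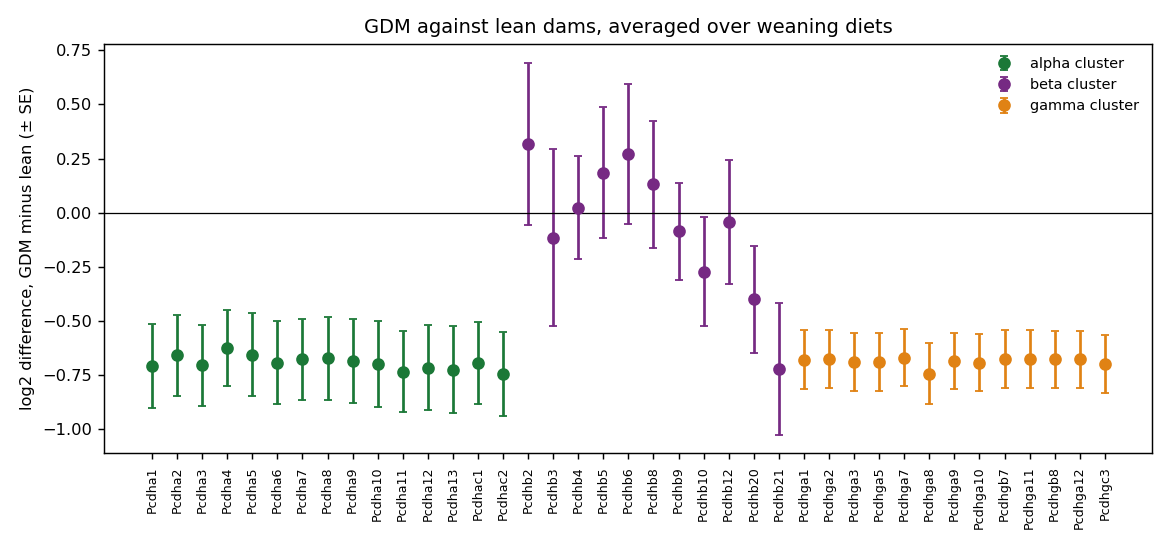
Log2 difference of GDM minus lean offspring, averaged over weaning diets, with SE from limma, for 39 members in chromosome order. Alpha and gamma entries lie between -0.75 and -0.63, and beta members between -0.72 and 0.32.

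The dam difference of the alpha and gamma clusters goes together with other measures of the libraries. Reads of rRNA made up 1.84% to 8.55% of gene reads in GDM offspring and 1.84% to 38.98% in lean offspring. Every lean library but Lean-LF 3 (1.84%) had an rRNA share of 11.34% or more, above every GDM library. Lean-LF 3 also had the lowest gamma level of the lean libraries, 425 (highest GDM library, 379). The part of rRNA share in the dam difference was not tested. With the rRNA entry Rn45s as a covariate the medians were -0.38 for gamma and -0.35 for alpha, and limma called 0 genes of 12339 (434 at an unadjusted p under 0.05, with 13 gamma and 0 alpha entries among them). Without the K libraries the medians were -0.61 and -0.53 for gamma and alpha, and limma again called 0 genes (2111 at an unadjusted p under 0.05, all 13 gamma and 15 alpha entries included). The gamma call held for 13 entries in 10 of the 12 fits without 1 library, for 10 entries without Lean-LF 1 and for 9 without Lean-LF 2. The alpha call fell to 0 entries without GDM-HFS 3, Lean-HFS 1, Lean-HFS 2, Lean-LF 1 or Lean-LF 2, to 1 without GDM-HFS 1, to 3 without GDM-HFS 2 and to 4 without GDM-LF 2. Calls over all 12339 genes, 1426 with every library, shifted in these fits too. They were 183 without Lean-LF 2, 207 without Lean-LF 1, 369 without GDM-HFS 3, 395 without Lean-HFS 1 and 977 without Lean-HFS 2. In the remaining fits without 1 library they ranged from 784 to 2471.

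Cell type markers differed between offspring of GDM and lean dams too (6.13% of all genes tested were called higher). Of 11 islet endocrine markers, Ppy, the hormone of PP cells, rose (log2 1.61, adjusted p = 0.0238, limma) and 0 fell, with a median of 0.08. Sst, the delta cell hormone, had a log2 difference of 0.57 (adjusted p = 0.120). Of 9 tested neuron markers 2 fell by limma, Nefm (log2 -1.08) and Syn1 (-0.97), a neurofilament and a synaptic vesicle protein, and 0 rose. The median of these 9 was -0.5, with 5 at an unadjusted p under 0.05 and 3 called by DESeq2. Above 0 were 3 of them, Npy (0.66), Nefl (0.43), also a neurofilament, and Prph (0.38). The summed level of 14 neuron markers was 820 to 1570 in GDM offspring and 1440 to 1880 in lean offspring, and the cholinergic marker Chat was at 0 in all lean libraries. Of 13 endothelial markers 2 fell, Eng (-0.75) and Kdr (-0.87), and 0 rose by limma, with 6 at an unadjusted p under 0.05 and 4 called by DESeq2. Their median was -0.37 with 5 of 13 above 0, Egfl7 (0.52) and Cldn5 (0.63) among them, and their sum was 567 to 1280 in GDM offspring and 816 to 1760 in lean offspring. The 13 acinar markers had a median log2 difference of 0.98 with 0 called by limma, edgeR or DESeq2 (2 at an unadjusted p under 0.05), and a sum of 38300 to 661000 in GDM offspring and 26800 to 225000 in lean offspring. Schwann, stellate and macrophage markers gave 0 calls by each of these tools (0, 1 and 0 at an unadjusted p under 0.05 by limma). Of 8 tested duct markers 1 rose by limma (Car2, 0.93) and 0 fell, with 5 at an unadjusted p under 0.05 and 2 called by DESeq2. The duct median was 1.06 with 7 of 8 above 0, and the sum was 2010 to 5440 in GDM offspring and 1110 to 3060 in lean offspring. The part of other cell types in the dam difference was not tested. With the acinar level as a covariate limma called 13 gamma entries (median -0.58) and 0 alpha entries (median -0.47, with 15 at an unadjusted p under 0.05). Over all 12339 genes that fit called 507 in either direction, against 1426 without the covariate.

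The weaning diet showed its widest differences in the beta members that lie first along the chromosome, and these values chose the family. Pcdhb6 was higher on HFS than on LF diet in offspring of GDM dams and lower on HFS diet in offspring of lean dams. It had 19, 17 and 9 reads in GDM-HFS and 7, 3 and 3 in GDM-LF, against 2, 0 and 0 in Lean-HFS and 29, 14 and 26 in Lean-LF. In each pair of diets the libraries do not overlap. The scaled values were 4.27, 3.66 and 5.19 in GDM-HFS, 2.63, 0.84 and 0.87 in GDM-LF, 0.90, 0 and 0 in Lean-HFS and 7.72, 6.09 and 4.32 in Lean-LF.

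For Pcdhb6 the log2 difference of HFS minus LF was 1.20 ± 0.457 in GDM offspring and -2.48 ± 0.457 in lean offspring (SE). The difference between them, 3.68 ± 0.647, was the highest of all 12339 genes, and the lean difference was the lowest. From reads alone, HFS over LF was 3.08 (95% exact counting interval 1.63 to 6.23) in GDM offspring and 0.05 (0.006 to 0.189) in lean offspring. A count of 0 allows up to 3 reads, a scaled value of 1.19 and 1.37 in the Lean-HFS libraries at 0. These intervals and limits, the intervals from reads pooled over a group, cover counting error only. They leave out the spread between libraries and are no test. Lean-LF 2, with a read total (14658004) and an rRNA share (30.39%) within the range of the Lean-HFS libraries, had 14 reads. The part of depth and rRNA share in the difference was not tested. In GDM offspring without K libraries the difference was 1.40.

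Pcdhb2, at the upstream end of the measured beta genes, showed the same signs with more overlap. It had 19, 11 and 14 reads in GDM-HFS and 4, 2 and 12 in GDM-LF, against 0, 2 and 2 in Lean-HFS and 14, 16 and 29 in Lean-LF. Its scaled values overlap between diets in GDM offspring, where GDM-HFS 2 at 2.37 lies below GDM-LF 3 at 3.50, and do not overlap in lean offspring. The log2 difference of HFS minus LF was 1.06 ± 0.529 in GDM offspring and -2.0 ± 0.529 in lean offspring. With the K libraries left out, GDM-LF 3 stands alone for its group, and the GDM difference was -0.09. Reads were pooled over the libraries of each group. HFS over LF was then 2.18 (95% exact counting interval 1.23 to 4.0) in GDM offspring and 0.118 (0.0311 to 0.318) in lean offspring. These intervals leave out the spread between libraries and are no test.

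**Figure D4:**
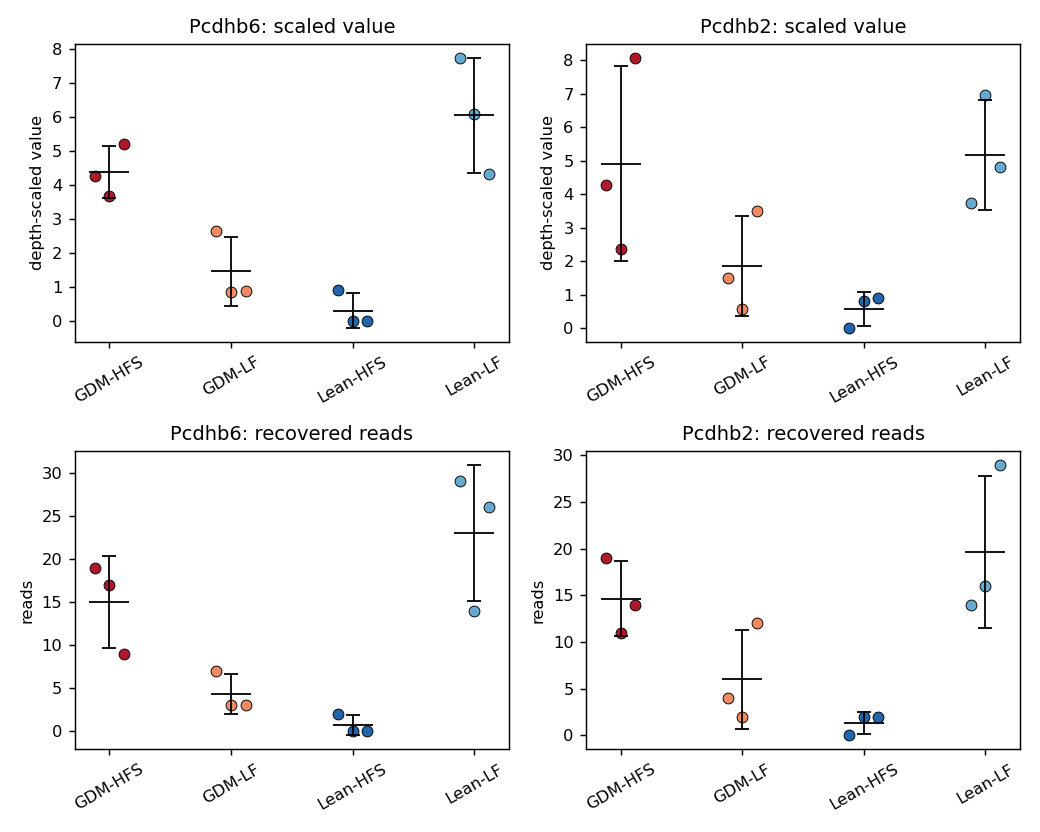
Depth-scaled values (top) and reads (bottom) of Pcdhb6 and Pcdhb2 in 12 libraries by group, as points with mean ± SD (n = 3). Pcdhb6 has 0 to 2 reads in Lean-HFS and 14 to 29 in Lean-LF.

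The diet differences of the beta members are given in order along the chromosome. The difference between the GDM and lean diet effects was 3.06 for Pcdhb2, 0.85 for Pcdhb3, 0.99 for Pcdhb4, 1.48 for Pcdhb5 and 3.68 for Pcdhb6. For the downstream members it was 0.17 for Pcdhb8, -0.02 for Pcdhb9, -0.26 for Pcdhb10, 0.42 for Pcdhb12, 0.00 for Pcdhb20 and -0.41 for Pcdhb21. The 5 upstream members thus hold the highest values, and the 2 highest, Pcdhb6 and Pcdhb2, chose the family. The SE of these values was 0.45 to 0.816. Pcdhb3 (0.85 ± 0.816) and Pcdhb4 (0.99 ± 0.476) stand close to the downstream Pcdhb12 (0.42 ± 0.572) for such errors. This order was seen after the values and was not tested. The upstream genes are also among the lowest: mean scaled values were 3.04 to 11.1 for Pcdhb2 to Pcdhb6 and 6.03 to 50.8 for Pcdhb8 to Pcdhb21.

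Between Pcdhb2 and Pcdhb6, Pcdhb4 had scaled values of 9.44, 7.10 and 12.7 in GDM-HFS and 4.52, 3.65 and 4.66 in GDM-LF, against 7.17, 5.97 and 5.92 in Lean-HFS and 7.19, 5.22 and 6.65 in Lean-LF. Its diets were apart in GDM offspring and overlapped in lean offspring, with log2 differences of 1.00 ± 0.336 and 0.01 ± 0.336 in GDM and lean offspring. Pcdhb5 had 62, 63 and 30 reads in GDM-HFS and 35, 18 and 27 in GDM-LF, against 30, 9 and 17 in Lean-HFS and 44, 28 and 81 in Lean-LF. Its log2 differences were 0.80 ± 0.429 in GDM offspring and -0.69 ± 0.429 in lean offspring. Pcdhb3 differed by 0.63 ± 0.577 in GDM offspring and by -0.22 ± 0.577 in lean offspring.

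**Figure D5:**
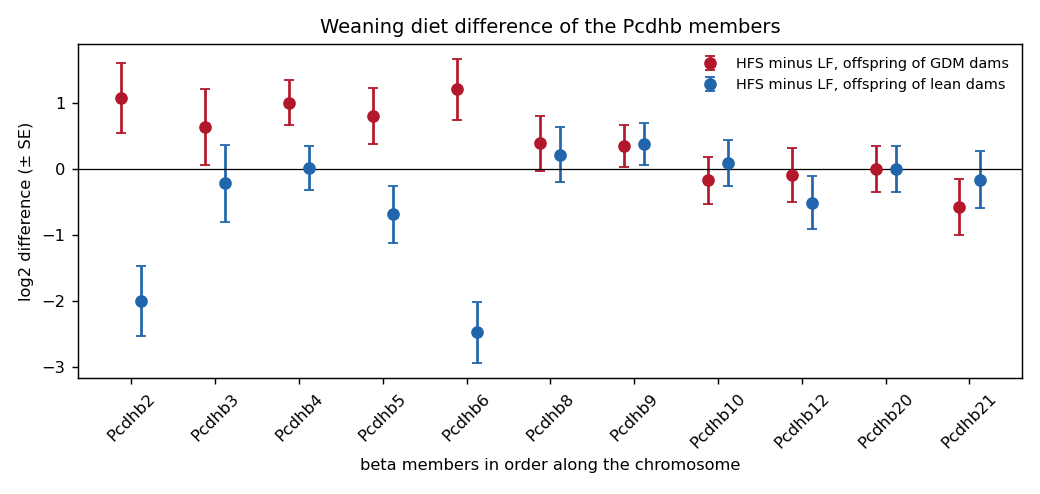
Log2 difference of HFS minus LF diet with SE for 11 beta members in chromosome order, in offspring of GDM dams (red) and lean dams (blue). The pairs stand furthest apart for Pcdhb2 and Pcdhb6, and come close together from Pcdhb8 on.

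HFS libraries lay above LF libraries without overlap in GDM offspring for 3 beta members, Pcdhb4, Pcdhb5 and Pcdhb6, against 7.42% of all genes tested. HFS libraries lay below LF libraries in lean offspring for 3 beta members, Pcdhb2, Pcdhb6 and Pcdhb12, against 3.95% of all genes. Only Pcdhb6 of the 39 members was apart in both with opposite directions, as were 0.470% of all genes. The diet differences of Pcdhb6 and Pcdhb2 chose the family, so these beta counts are a description only. In the alpha cluster 0 of 15 entries were apart by diet, in either direction and either kind of offspring (14.0% of all genes in GDM and 7.63% in lean offspring), with median log2 differences of -0.14 and -0.19 in GDM and lean offspring. In the gamma cluster 8 of 13 entries were apart in GDM offspring and 0 in lean offspring, with medians of 0.19 and -0.07. Those 8 entries share their reads.

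Genes that act with the clustered protocadherins were taken as 5 lists with 89 genes, of which 70 were tested. In GDM against lean offspring 1 rose and 4 fell (all genes tested, 6.13% higher and 5.43% lower). The lists of partners and signalling held 4 of them. Cyfip2, a subunit of the WAVE complex, which builds actin networks and binds the alpha tail, fell, with a log2 difference of -0.72 ± 0.176 (adjusted p = 0.0237, limma). It ranged from 254 to 448 in GDM offspring and from 452 to 955 in lean offspring, without overlap. Brk1, a small subunit of the same complex, rose by 0.59 ± 0.152 (adjusted p = 0.0286, limma), with 457 to 722 in GDM offspring and 276 to 519 in lean offspring.

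Ret, a receptor tyrosine kinase, fell by 0.75 ± 0.189 (adjusted p = 0.0273, limma). It averaged 198 ± 39.9 in GDM offspring and 338 ± 88.7 in lean offspring (SD, n = 6 each). Nlgn2, a synaptic adhesion protein, fell by 0.75 ± 0.210 (adjusted p = 0.0382, limma), to 52.0 ± 16.6 in GDM offspring, against 88.4 ± 28.1 in lean offspring. The other 19 of 23 genes in this list did not pass, with a median of -0.21 for the whole list. Among 15 tested other protocadherins and large cadherins, Cdhr1, a cadherin of photoreceptors, fell by 0.79 ± 0.231 (adjusted p = 0.0442, limma), and the median was -0.36. Of these 15 genes 9 lay below 0 and 6 above 0, and 6 were at an unadjusted p under 0.05 by limma, in both directions.

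Regulators of the locus did not pass. CTCF and cohesin genes, which fold the locus, gave 0 calls of 10 by limma, edgeR and DESeq2 (2 at an unadjusted p under 0.05 by limma, median -0.17). The lowest p-values were those of Pds5a (log2 -0.38 ± 0.144) and Rad21 (-0.24 ± 0.101), with adjusted p = 0.0950 and 0.129. Genes of DNA methylation and chromatin silencing gave 0 of 13 by limma and edgeR and 1 by DESeq2 (2 unadjusted, median -0.14). Setdb1, a histone methyltransferase, had a log2 difference of -0.31 ± 0.132 (adjusted p = 0.128). Classical cadherins gave 0 of 9 by limma and edgeR and 1 by DESeq2 (2 unadjusted), led by Cdh22 (-0.68 ± 0.238, adjusted p = 0.0774) and the endothelial Cdh5 (-0.69 ± 0.267, 0.102).

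The weaning diet gave 0 calls among the 70 genes by limma, edgeR and DESeq2, in offspring of GDM dams (5 at an unadjusted p under 0.05 by limma, lowest adjusted p = 0.504) and of lean dams (3 unadjusted, lowest adjusted p = 1.0). Of all 12339 genes limma called 0.00% in each, with 1188 and 269 genes at an unadjusted p under 0.05 in GDM and lean offspring. Ctcf, which encodes the looping factor itself, had log2 differences of HFS minus LF of -0.51 ± 0.209 in GDM offspring and 0.09 ± 0.209 in lean offspring (adjusted p = 0.504 and 1.0, limma). Its overall level was 229 ± 66.1 in GDM offspring and 264 ± 36.6 in lean offspring (scaled value, SD, n = 6 each).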

How the data were processed

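Per the labels' protocols, islets were hand-picked, rRNA was depleted and directional libraries were made. STAR 2.5.1b, HOMER 4.9 and DESeq2 are named in the submitters' processing notes. Per the file headers, the authors summed reads over exons per gene on rn5, on both strands, so antisense and overlapping reads cannot be told apart. The treatment of multi-mapping reads was not stated, which leaves near-identical members uncertain. The deposited values are a depth-scaled signal: despite an FPKM header they were not divided by length, and 100% of values up to 1000 reads were whole reads (tolerance 0.1).

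Deposited values were rescaled by median ratios (factors 0.83 to 1.27). limma 3.58.1 (R 4.3.3, mean-variance trend) modelled log2(scaled value + 1) by group in all 12 libraries, for 12339 genes of mean at least 1, with Benjamini-Hochberg adjustment over these genes (threshold 0.05). This scale understates changes of low genes. edgeR 4.0.16 and DESeq2 1.42.0 were run on recovered reads, leaving rRNA out. Scripts were tested on simulated data. Members and lists were chosen with earlier results of these data known. Named were Pcdhb2, Pcdhb6, the 12 members of lowest p, the 3 highest per kilobase in each cluster and, of each list, genes past the threshold (at most 4) or the 2 of lowest p. One list gene under this rule is left out of the text. The 12 of lowest p share gamma reads and are given by range. Motif searches used RefSeq promoters of GRCr8.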

Additional observations from a re-analysis of the deposited data

Results flagged for a closer look

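Pcdhb6 differed between weaning diets in opposite directions in offspring of GDM dams and of lean dams. All 3 GDM-HFS libraries lay above the 3 GDM-LF libraries, and all 3 Lean-HFS libraries lay below the 3 Lean-LF libraries, with a difference of 3.68 between the diet effects on the log2 scale. The difference was not tested, because it was used to choose the family. Such opposite separation was seen for 0.470% of all genes tested, a share that lends no support, because these values chose the family.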

How the results depend on the processing

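Of 28 members called lower in GDM offspring, the count was 15 with values as deposited, 13 without the mean-variance trend, with the acinar covariate or with the length trend removed, and 0 with the Rn45s covariate or without the K libraries. Leaving out 1 library gave 9 to 28. Over all 12339 genes, limma called 1426 in the main fit and 183 to 2471 without 1 library. It called 674 with values as deposited, 671 without the trend, 507 with the acinar covariate and 552 with the length trend removed. Alpha counts were 6 with no filter and with the replicate block, 2 as deposited, 0 in the other 5 of these fits and 0 to 15 without 1 library. Gamma counts were 0 with Rn45s and without the K libraries, 9 to 13 without 1 library, and 13 otherwise. Pathway calls (5) were 3 with no filter, 2 as deposited, 0 in the same 5 fits, 10 by DESeq2 and 0 to 11 without 1 library. Same-numbered libraries had correlations of -0.499 to 0.201 in their deviations from group means. Libraries of different numbers were not compared, so these values cannot decide whether the numbers pair libraries. The replicate block gave 1140 calls against 1426 over all genes. The causes of these shifts were not tested.

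Pcdhb6 in lean offspring stood at -3.18 and -1.81 with pseudocounts of 0.5 and 2, -4.22 by edgeR and -4.37 by DESeq2. The difference of its diet effects was 4.61, 2.72, 5.80 and 5.99 in that order. Pcdhb2 in lean offspring was -3.09 by edgeR and -3.16 by DESeq2, and its difference of diet effects 3.77, 2.30, 4.40 and 4.51, and 1.90 without the K libraries. The GDM difference of Pcdhb2 turned to -0.09 without them. For GDM against lean, Pcdhb10 turned to 0.05 with Rn45s. Pcdhb9 turned to 0.05 without GDM-LF 2 and with the length trend removed, 0.07 without the K libraries, 0.03 with the acinar covariate and 0.37 with Rn45s, with -0.21 to 0.05 over the fits without 1 library. Without 1 library, diet differences were 1.03 to 1.52 (GDM) and -2.79 to -2.31 (lean) for Pcdhb6 and 0.70 to 1.46 and -2.17 to -1.70 for Pcdhb2, and the differences of diet effects 3.51 to 4.0 and 2.69 to 3.46.

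Pcdhb6 and Pcdhb2 rest on 0 to 29 reads per library, which limits their precision.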

Other observations

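Genes next to the protocadherin clusters, a set chosen after values were seen, moved in both directions. Of 25 tested genes within 500000 bases of the clusters on chromosome 18, limma called 1 higher and 1 lower in GDM against lean offspring, against 6.13% higher and 5.43% lower of all genes tested. Their median log2 difference was 0.18, with 14 genes above 0 and 11 below 0. Of 8 genes downstream of the clusters 6 were below 0, and of 14 genes upstream 10 were above 0. Of all 12339 genes tested, 5836 were below 0 and 6503 above 0. A difference between the 2 sides was not tested. Ndufa2, a subunit of respiratory complex I, rose by 1.10 ± 0.175 (adjusted p = 0.00966, limma), and RGD735029 fell by 0.48 ± 0.132 (adjusted p = 0.0345, limma). Taf7, a general transcription factor gene between the beta and gamma clusters, stood at 177 ± 21.6 in GDM offspring and 128 ± 29.8 in lean offspring (SD, n = 6 each), a log2 difference of 0.49 ± 0.153 (adjusted p = 0.0558, limma). Diaph1, just downstream of the gamma cluster and read from the other strand, had a log2 difference of -0.33 ± 0.155 (adjusted p = 0.164, limma).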
